A study of Homo sapiens with 2 samples.

Results

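miR-21, miR-31, miR-221 and miR-222 are microRNAs (miRNAs) described as growth-promoting, or oncogenic, in lung cancer. They were picked by assay name from a PCR card, and all 4 names were found, each on 1 assay, among 365 miRNA assays. The card was run on CL1-5 cells, an established human line of lung adenocarcinoma that was selected for invasiveness. There was 1 RNA sample of CL1-5 cells stably overexpressing ANGPTL1, a secreted angiopoietin-like protein, and 1 of CL1-5 cells carrying the empty vector pcDNA3.1, called control cells here. Both lines went through 4 weeks of selection with the antibiotic G418. Whether either is a clone or a pool is not given in the sources used here, and the 2 samples are separate stable lines, so ANGPTL1 and line-to-line variation cannot be told apart.

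miRNAs are short RNAs that guide Argonaute proteins to messenger RNAs, mostly by pairing of the seed, bases 2 to 8 of the miRNA. miR-21, found at high levels in many carcinomas, represses the tumour suppressor PDCD4. miR-221 and miR-222 are cut from the same precursor transcript, share their seed, and repress the cell cycle inhibitor CDKN1B (p27) and the receptor KIT. miR-31 has been described as promoting growth in lung cancer by repressing LATS2 and PPP2R2A, and as suppressing metastasis in breast cancer.

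The mature sequences are shown because the seeds sort the 4 miRNAs into 3 groups and because the last bases tell miR-221 from miR-222. All 4 names matched 1 RefSeq entry each (build GRCh38.p14), and for each the arm that the older name without an arm stood for was taken. Capitals mark the seed.
miR-21: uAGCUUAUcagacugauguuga
miR-31: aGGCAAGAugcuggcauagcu
miR-221: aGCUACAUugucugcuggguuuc
miR-222: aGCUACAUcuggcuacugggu
miR-221 and miR-222 were identical over their first 8 bases and, without gaps, at 11 of 21 positions compared. The seed of miR-21 also occurs in miR-590-5p, which was not analysed here, and RefSeq holds no other mature miRNA with the seed of miR-31. Stem-loop assays of this kind prime from the end of the miRNA opposite the seed, and how far the miR-221 and miR-222 assays read each other was not tested.

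In the genome, miR-21 lies on the plus strand at chr17:59841273-59841294, inside the span of the protein-coding gene VMP1. miR-31 lies on the minus strand at chr9:21512158-21512178, inside the span of the long noncoding RNA gene MIR31HG. miR-221 (chrX:45746180-45746202) and miR-222 (chrX:45747036-45747056) lie on the minus strand inside the span of MIR222HG, with 748 bases between their hairpins.

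Levels were read as the threshold cycle (Ct), the PCR cycle at which the fluorescence of an assay crosses a set level, so that a lower cycle means more template and, assuming doubling, 1 cycle less means 2 times as much. The PCR ran for 40 cycles, and a value of 40 was read as no amplification. An assay counted as detected below cycle 35. By this limit 158 miRNA assays were detected in ANGPTL1 cells, 157 in control cells and 145 in both. The endogenous control RNU48, a small nucleolar RNA, crossed threshold at 21.21 in ANGPTL1 cells and 20.79 in control cells. With 1 sample per group there is no spread between replicates, so no difference below has an error or a test, and each compares these 2 RNA samples. ANGPTL1 is not a miRNA and was not measured on the card. Marker miRNAs of blood, muscle, liver, nerve, connective tissue and endothelium were detected in both samples on 4 of 17 assays (miR-133b, 1 assay named miR-199a and both named miR-126), and epithelial ones on 2 of 8 (miR-200c and miR-203).

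miR-222 had the lowest cycle of all 366 assays in both samples, miR-221 and miR-21 stood among the 11 lowest, and miR-31 did not amplify in either. The difference between ANGPTL1 and control cells was, relative to RNU48, under 1.5-fold for each of the 3 that were detected. miR-221 and miR-222 lay on opposite sides of 0 relative to RNU48, although they come from the same transcript.

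miR-222 crossed threshold at cycle 20.67 in ANGPTL1 cells and 19.89 in control cells, rank 1 in both. The next miRNA assay, miR-594, followed 1.29 cycles later in ANGPTL1 cells and 0.84 cycles later in control cells. miR-222 was thus the only miRNA assay that preceded RNU48 in ANGPTL1 cells, whereas in control cells miR-594 also did. Its level was 1.45 times that of RNU48 in ANGPTL1 cells and 1.87 times in control cells. These ratios between assays assume equal amplification efficiency, which was not measured, so they order assays rather than count molecules.

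miR-221 crossed threshold at cycle 22.76 in ANGPTL1 cells and 22.59 in control cells, rank 9 and rank 11. Its level was 34.2% of RNU48 in ANGPTL1 cells and 28.7% in control cells. miR-21 crossed threshold at cycle 23.33 in ANGPTL1 cells and 22.49 in control cells, rank 11 and rank 10. Its level was 23.0% of RNU48 in ANGPTL1 cells and 30.8% in control cells. The order of these neighbours therefore differed between the samples. In ANGPTL1 cells miR-221 came 0.57 cycles before miR-21, and in control cells 0.10 cycles after it, a comparison that needs no reference RNA. Without replicates, whether gaps of this size exceed the spread cannot be said. The same 15 assays held ranks 1 to 15 in both samples.

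**Figure D1:**
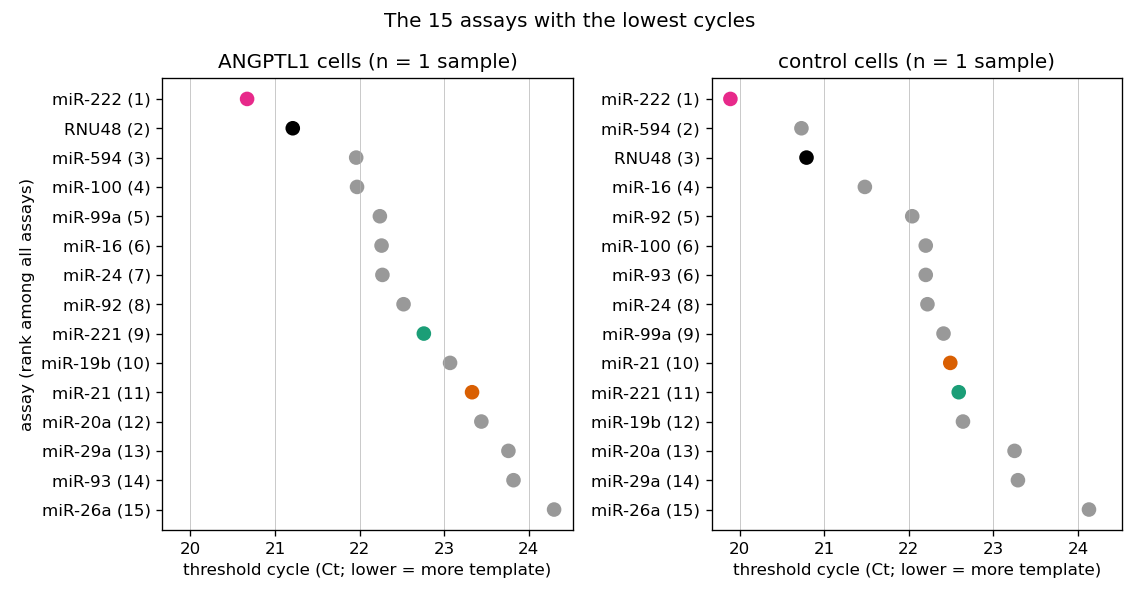
Threshold cycle (Ct, horizontal axis) of the 15 assays with the lowest cycles, from the top down, in ANGPTL1 cells (left) and control cells (right), with 1 sample each and the rank in brackets. miR-222 (pink) stands first in both panels, while miR-221 (green) and miR-21 (orange) lie at ranks 9 and 11 in ANGPTL1 cells and at ranks 11 and 10 in control cells. RNU48 is black.

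miR-31 was listed at cycle 40 in ANGPTL1 cells and in control cells, as were 129 other miRNA assays. It shared the last place, rank 214 in ANGPTL1 cells and rank 212 in control cells, with all assays at cycle 40, which numbered 153 in ANGPTL1 cells and 155 in control cells, itself included. That is 18.79 cycles after RNU48 in ANGPTL1 cells and 19.21 in control cells, where the distance reflects the end of the run rather than a level. The authors' deposited table gives miR-31 a fold change of 1.34, which arises from the shift of RNU48 between the samples, since both miR-31 cycles are 40. A difference in miR-31 was not detectable at this depth, and whether the miR-31 assay amplifies on these cards was not tested. The name oncogenic miRNA is thus carried by 3 abundant assays and by miR-31 for which these samples give no level.

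The nearest assay to miR-31 on chromosome 9, chosen after its values were seen, was miR-491, whose gene lies 796 kb away. It crossed threshold at 31.81 in ANGPTL1 cells and 31.32 in control cells and had a log2 ratio of -0.07. Only 251 assays could be placed by name on 1 RefSeq hairpin, and 12 of them lay on chromosome 9, miR-31 and both named miR-126 included. Of these 12, 7 were detected in both samples. Over all 365 miRNA assays, placed or not, the count was 145. After miR-491, the next nearest of the 12 placed assays to miR-31 was miR-204, 49298 kb away and at cycle 40 in both samples. Why miR-31 gave no signal was not tested.

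The difference between ANGPTL1 and control cells was taken as a log2 ratio relative to RNU48, with positive values for more miRNA in ANGPTL1 cells. In ANGPTL1 cells miR-21 was 1.34-fold lower, with a log2 ratio of -0.42. miR-222 was 1.28-fold lower, with a log2 ratio of -0.36. miR-221 was 1.19-fold higher, with a log2 ratio of 0.25. Of the 3 detected members 0 passed 2-fold, and over all 145 miRNAs detected in both samples 12.4% did, 7.59% on the higher side and 4.83% on the lower side. At 1.5-fold, relative to RNU48, the members' count was also 0, against 35.9% of the 145. With 3 members, counts of 0 do not set them apart from these backgrounds. Other references moved members past 1.5-fold, such as miR-21 at a log2 ratio of -0.84 without a reference and miR-221 at 0.61 with miR-16. The share of the 145 past 1.5-fold was not counted with those references.

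Each of the 3 ratios lay well inside the range of the other miRNAs. Counted from the highest ratio among the 145, miR-221 was at place 43, miR-222 at place 107 and miR-21 at place 110. As many as 45.5% of the 145 were at least as far from 0 as miR-21, 51.0% as miR-222 and 66.2% as miR-221, each count including the miRNA itself. The median log2 ratio was -0.36 over the 3 members and -0.01 over the 145.

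**Figure D2:**
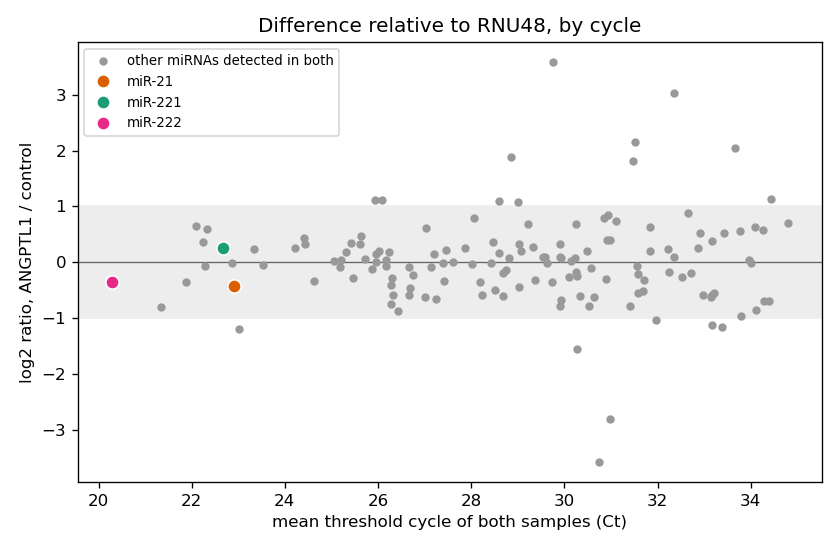
Log2 ratio of ANGPTL1 over control cells relative to RNU48 (vertical axis) against the mean threshold cycle of both samples (horizontal axis) for the 145 miRNAs detected in both, with 1 sample per group. The grey band marks differences under 2-fold. miR-222 (pink, -0.36), miR-221 (green, 0.25) and miR-21 (orange, -0.42) sit at the left, among the earliest cycles, and inside the band.

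The early assays show how far ratios of well-detected miRNAs spread. A total of 16 miRNAs were below cycle 25 in both samples, and their log2 ratios ran from -1.20 (miR-93) to 0.65 (miR-100), with a median of 0.11. Of these 16, 1 passed 2-fold, miR-93. miR-21 was matched or exceeded in distance from 0 by 6 of the 16, miR-222 by 9 and miR-221 by 12, each count including the miRNA itself. The members thus lay inside the spread of miRNAs read at similar cycles.

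The assays nearest to each member, by the distance between their cycles over both samples, were other early ones. For miR-21 these were miR-19b (0.30 cycles away), miR-93 (0.57) and miR-221 (0.58). For miR-221 they were miR-19b (0.31), miR-99a (0.55) and miR-21 (0.58). For miR-222, which stood apart from all other miRNA assays, they were miR-594 (1.54 cycles away), miR-16 (2.25) and miR-100 (2.65). The log2 ratio of miR-16, a cell cycle repressor, was the same as that of miR-222, at -0.36. With 2 samples, likeness here means only similar cycles in both.

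The direction of miR-221 depended on the reference RNA. RNU48 itself was 0.42 cycles later in ANGPTL1 cells, and 115 of the 145 miRNAs were later there as well, with a median of 0.43 cycles. All 3 detected members were later in ANGPTL1 cells, miR-21 by 0.84 cycles, miR-222 by 0.78 and miR-221 by 0.17. Without a reference the log2 ratio of miR-221 was therefore -0.17, and with miR-24 as the reference it was -0.12. With miR-16 it was 0.61 and with miR-191 0.34. miR-21 stayed below 0 with each of these, between -0.84 without a reference and -0.06 with miR-16. miR-222 lay between -0.78 without a reference and 0.00 with miR-16. Every one of these values was under 2-fold.

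**Figure D3:**
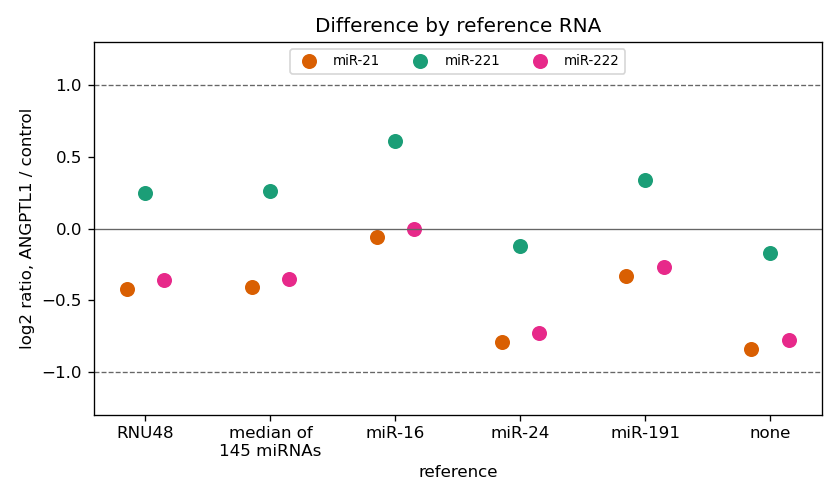
Log2 ratio of ANGPTL1 over control cells (vertical axis) for miR-21 (orange), miR-221 (green) and miR-222 (pink) with each reference (horizontal axis), 1 sample per group. Dashed lines mark 2-fold. miR-221 lies below 0 with miR-24 (-0.12) and with no reference (-0.17) and above 0 with the others, and at each reference it lies above miR-21 and miR-222.

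A measure that needs no reference is the share of each miRNA in the summed level of all detected miRNA assays of a sample, taking 2-fold per cycle. miR-222 made up 19.3% in ANGPTL1 cells and 22.8% in control cells. miR-221 made up 4.54% in ANGPTL1 cells and 3.51% in control cells. miR-21 made up 3.06% in ANGPTL1 cells and 3.76% in control cells. Together the 3 held 26.9% of the summed level in ANGPTL1 cells and 30.0% in control cells. The 10 earliest miRNA assays together held 71.0% in ANGPTL1 cells and 73.2% in control cells. A share rests on the few earliest assays and on equal efficiency, so it moves when any of them does.

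**Figure D4:**
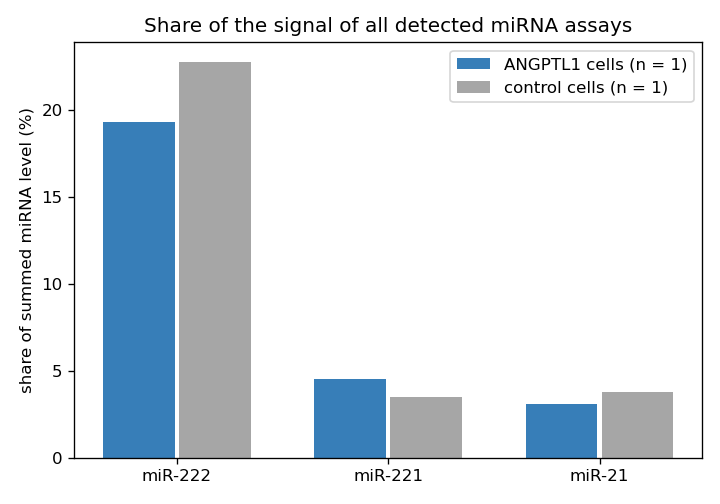
Share of the summed level of all detected miRNA assays (vertical axis, percent) held by miR-222, miR-221 and miR-21 in ANGPTL1 cells (blue) and control cells (grey), 1 sample each and therefore no error bars. miR-222 holds 19.3% in ANGPTL1 cells and 22.8% in control cells, several times the share of either of the others.

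miR-221 and miR-222, the pair from MIR222HG, differed in both level and ratio. miR-222 came 2.09 cycles before miR-221 in ANGPTL1 cells and 2.70 cycles before it in control cells. At 2-fold per cycle this is 4.26-fold more template in ANGPTL1 cells and 6.50-fold more in control cells. The gap was smaller in ANGPTL1 cells by 0.61 cycles, or 1.53-fold, a difference that no reference RNA affects. miR-221 likewise differed from miR-21 by 0.67 on the log2 scale, while miR-222 and miR-21, from separate chromosomes, differed by 0.06. The ratio of miR-222 was thus nearer to that of miR-21 than to that of its transcript partner.

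To set this gap beside others, 23 further pairs of miRNAs were listed as cut from a common transcript, of which 14 had both assays detected in both samples. The absolute difference of log2 ratios within these 14 pairs had a median of 0.295. It ran from 0.07 for miR-17-5p and miR-92 to 1.22 for miR-424 and miR-503, which were read at late cycles. At 0.61, miR-221 and miR-222 were further apart than 12 of the 14 pairs and closer than miR-15b with miR-16 (0.68) and miR-424 with miR-503. Whether a miRNA of these pairs is also cut from another transcript, which its assay would read as well, was not taken into account. Pairs share members (miR-25 stands in 2 of them), and the scatter between repeat wells is not known, so this places the pair without a test. The other 10 detected miRNAs placed by name on chromosome X had a median log2 ratio of -0.24.

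**Figure D5:**
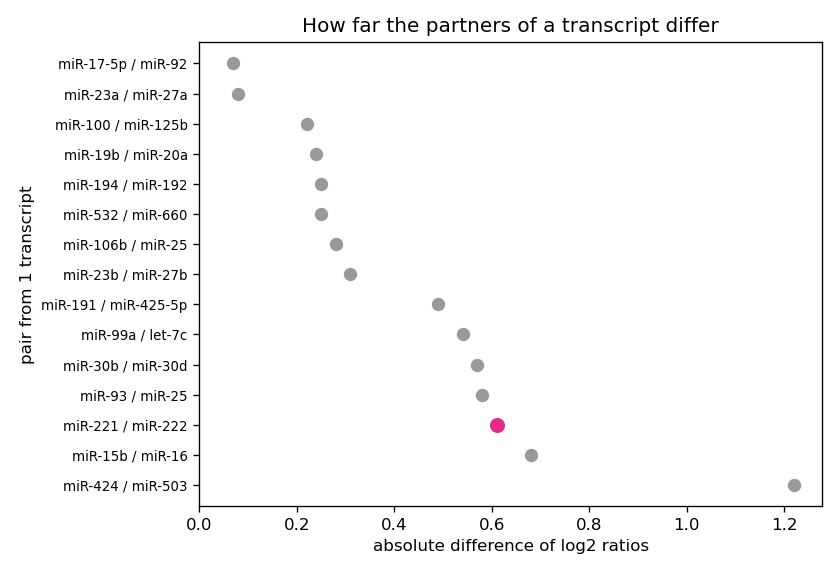
Absolute difference of the log2 ratios (ANGPTL1 over control) of both partners (horizontal axis) for pairs of miRNAs listed as cut from 1 transcript (vertical axis), 1 sample per group. miR-221 and miR-222 (pink) lie at 0.61, a larger difference than in 12 of the 14 other pairs (grey), whose values run from 0.07 to 1.22.

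Most other miRNAs described as oncogenic in lung cancer lay within 2-fold, as did most detected miRNAs. Of 25 names listed, 22 could be read from the card and 17 were detected in both samples. Of these 17, 1 was past 2-fold on the higher side, miR-155, and 2 on the lower side, miR-183 and miR-93. Of the 145, 11 (7.59%) were higher and 7 (4.83%) lower. With 17 miRNAs, such counts show neither a likeness to the 145 nor a difference from them. The other 14 lay within 2-fold, as did 120 of 138 detected miRNAs with settled names, and the median log2 ratio was -0.01, as over all 145. miR-93, from the cluster with miR-106b and miR-25, stood at cycle 23.82 in ANGPTL1 cells and 22.20 in control cells, close to miR-21 in level, and was 2.30-fold lower.

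Among miRNAs described as tumour suppressors in lung cancer, 37 names were listed. Of these names, 31 could be read from the card and 20 were detected in both samples. miR-126, named on 2 assays that were both detected, was left out. Of the 20, 7 were past 2-fold on the higher side and 1 on the lower side, miR-486, beside 7.59% and 4.83% of the 145. Their median log2 ratio was 0.43. The 7 were let-7b and let-7c, miR-30a-5p, miR-7, miR-34c, miR-146a and miR-200c. All 7 were read at later cycles than miR-21, miR-221 and miR-222, from 25.74 (miR-30a-5p) to 34.08 (let-7c) in ANGPTL1 cells and from 26.44 to 34.79 for the same miRNAs in control cells. The list was made with earlier results of these data known, so its counts are not independent evidence of a direction. Without a reference RNA 4 of the 20 were past 2-fold on the higher side and 2 on the lower side, beside 6 and 29 of the 145. With miR-24 as the reference the counts were also 4 and 2, beside 6 and 21 of the 145. With detection below cycle 32, where 11 of the list were left, 3 were higher and 0 lower, beside 6 and 2 of 107.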

How the data were processed

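Mature miRNAs were measured by TaqMan PCR from 500 ng of total RNA of each sample, per the labels' protocols, with 1 sample of ANGPTL1 cells and 1 of control cells. The deposited cycles, a score from the instrument, are averages per assay, per the file headers. How many wells were averaged, how they scattered, and which threshold and program were used is not stated in the labels or headers. The deposited delta Ct is the cycle of the assay minus that of RNU48, a log2 scale with the sign turned, and differed from the deposited cycles by at most 0.01. The authors' deposited fold change is the ratio of ANGPTL1 over control cells, and its logarithm differed from the log2 ratio used here by at most 1.8e-07. A further 2 columns of relative levels, which share their names with the delta Ct columns, were not used.

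Log2 ratios were delta Ct in control minus delta Ct in ANGPTL1 cells, with 2-fold as the threshold and detection below cycle 35. Names on 2 assay numbers (14 names) were left out of lists and pairs. Ranks covered all 366 assays, ties taking the lowest rank. Named were the 4 members, the 3 assays nearest to each, list members past 2-fold, pairs at the ends of their range and the earliest assays. The members and lists were chosen with earlier results of these data known. Marker lists of other tissues were used to describe the cells. The calculation of the ratios was run on simulated data with known shifts, which checks the arithmetic only. Alternatives were other references, detection limits of 32 and 38, a 1.5-fold threshold and 1.9-fold per cycle. Python 3.11.15, numpy 2.4.6 and pandas 2.3.3 were used. The number of samples limits the precision.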

Additional observations from a re-analysis of the deposited data

How the results depend on the processing

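Of 142 values recomputed, 84 stayed within rounding (0.01 on the log2 scale, 1% of a level or share) or, for counts, within 1.5 times, and 58 did not. The count of members past 2-fold, 0, was the same under every alternative run. The ratios of the members with RNU48 recomputed or from the authors' table differed by at most 0.01, which by construction tests little. With the median of the 145 miRNAs as reference they also differed by at most 0.01. There the match is not by construction, as the median miRNA was 0.43 cycles later in ANGPTL1 cells and RNU48 0.42. For miR-21, miR-221 and miR-222 in that order, the log2 ratio was -0.84, -0.17 and -0.78 without a reference, -0.06, 0.61 and 0.00 with miR-16, -0.79, -0.12 and -0.73 with miR-24, -0.33, 0.34 and -0.27 with miR-191, and -0.39, 0.23 and -0.33 at 1.9-fold per cycle. A change of reference shifts all members alike, so the order among them holds by construction.

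Levels in the same order, relative to the median cycle, were 58.5, 86.8 and 370 in ANGPTL1 cells and 108, 101 and 657 in control cells, and relative to miR-16 0.476, 0.707 and 3.01 in ANGPTL1 cells and 0.497, 0.463 and 3.01 in control cells. At 1.9-fold per cycle the shares were 3.1%, 4.47% and 17.1% in ANGPTL1 cells, and 3.55% for miR-221 and 20.1% for miR-222 in control cells. With RNU48 left out of the ranking, at each detection limit, miR-21 ranked 10 and miR-221 ranked 8 in ANGPTL1 cells, and miR-21 ranked 9 and miR-221 ranked 10 in control cells.

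Of the 17 other oncogenic miRNAs, 2 were past 2-fold on the higher side with miR-16 (21 of all 145) and 2 at a 1.5-fold threshold (24 of 145). On the lower side there were 4 without a reference (29 of 145), 1 with miR-16 (3 of 145) and 4 at 1.5-fold (28 of 145). Of the 20 tumour suppressor miRNAs, 4 were higher without a reference (6 of 145) and 4 with miR-24 (6 of 145). Other settings raised this count, to 9 with miR-16 (21 of 145) and 10 at 1.5-fold (24 of 145). With detection below cycle 32, 3 of the 11 left were higher (6 of 107). Those lower numbered 2 without a reference (29 of 145), 2 with miR-24 (21 of 145), 2 at 1.5-fold (28 of 145) and 0 below cycle 32 (2 of 107). The median difference within transcript pairs was 0.265 below cycle 32 (12 pairs) and 0.31 below cycle 38 (17 pairs). No paired analysis was possible because there was a single sample of each line, and no replicate could be left out. Having 1 RNA sample per group limits every difference here.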
